A study of Mus musculus with 41 samples.

Results

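Described here are 43 interferon-inducible and major histocompatibility complex (MHC) class I antigen presentation genes, listed by name. A listed gene was analysed where at least 3 libraries held at least 1 CPM, that is, 1 read per 1000000 assigned reads. This filter left 16967 of 55487 genes, and 40 of the 43 listed genes were among them. The study followed E14 mouse embryonic stem cells, labelled as WT or as depleted for Esrrb, as they left the naive state for the formative state. Esrrb, a nuclear receptor without a known natural ligand, helps to hold mouse embryonic stem cells in the naive state. RNA was counted in 41 libraries by QuantSeq, which reads a tag near the 3′ end of polyadenylated transcripts, so that a gene's level does not scale with its length. KO2 and KO3 are 2 lines labelled as genetically depleted for Esrrb, and the single WT line carries the name PGG in its titles. Which stretch of Esrrb was removed is not stated in the labels, nor is whether a line is 1 clone. All 3 lines were cultured in N2B27 medium with CHIR99021 at 3 µM, PD0325901 at 1 µM and LIF, a mixture called 2iL. For the transition they spent 1 day in plain N2B27 and then 1, 3 or 5 days in AloXR, which is N2B27 with activin A at 3 ng/ml, XAV at 2 µM and BMS439 at 1.0 µM. KO2 gave 3 libraries in 2iL and 4 at each day, KO3 gave 3 in 2iL, 4 at day 1 and 2 at each of days 3 and 5, and WT gave 3 in 2iL and 4 at each day.

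Interferons bind receptors whose kinases activate STAT proteins. Type I interferon acts through Stat2 and Irf9, among others, on the interferon-stimulated response element (ISRE), and interferon gamma acts on the gamma-activated site (GAS) and through Irf1. Their targets include guanylate-binding proteins, Ifitm membrane proteins, RNA sensors, antiviral effectors and the genes that load peptides on MHC class I. Pluripotent stem cells are known for low MHC class I, a muted interferon response and constitutive expression of some of these genes, such as Ifitm3.

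Depth was 3424064 to 5736053 assigned reads per library, and a library with no read of a gene leaves room for 3 reads, or 0.523 to 0.876 CPM by its depth (counting error only). Esrrb held 52 to 56.7 CPM in KO2 and 103 to 166 CPM in KO3, against 309 to 434 CPM in WT in 2iL, and a tag near its 3′ end need not lie in the removed stretch. It was lower in the depleted lines by 2.11 on the log2(CPM + 1) scale (exact two-sided permutation p = 0.0238, the smallest that 6 libraries against 3 allow). At day 1 it held 1.64 to 5.52 CPM in KO2 and 26.1 to 41.4 CPM in KO3, against 12.2 to 17.8 CPM in WT. At day 3 it held 1.16 to 3.20 CPM in KO2 and 4.87 to 6.17 CPM in KO3, against 1.19 to 1.83 CPM in WT, and at day 5 no library exceeded 1.69 CPM. The libraries labelled KO3 were thus above every WT library in Esrrb tags at days 1 and 3, though below every WT library in 2iL. At days 1 and 3 the tags do not show the labelled depletion in KO3. Whether its tags came from an intact transcript was not tested. All 13 pluripotency markers passed the filter. Their sum in 2iL was 2826 to 3240 CPM in KO2 and 2403 to 3660 CPM in KO3, against 3889 to 4288 CPM in WT, and at day 5 it was 1282 to 1803 CPM in KO2 and 1844 to 1849 CPM in KO3, against 929 to 1071 CPM in WT. In the depleted lines 6 of these markers fell and 0 rose in 2iL, 2 fell and 1 rose at day 1, and 1 fell and 5 rose at each of days 3 and 5. Of all genes 7.6% fell and 8.11% rose in 2iL, and 5.5% and 6.31% at day 1. These shares were 6.49% and 10.8% at day 3, and 11.7% and 8.89% at day 5. Esrrb is itself 1 of these 13 markers, so its own tags are part of the sums and its own change is part of the counts. The 21 interferon genes held 2 reads in all libraries together, and 19 of them held none. The 13 fibroblast and feeder markers summed at day 3 to 83.6 to 133 CPM in KO2 and 49.9 to 54.3 CPM in KO3, against 36.1 to 46.9 CPM in WT. Of the 10 tested, 5 rose and 1 fell in the depleted lines, against 10.8% and 6.49% of all genes. The 14 haematopoietic markers summed in 2iL to 121 to 145 CPM in KO2 and 191 to 288 CPM in KO3, against 136 to 154 CPM in WT. At day 3 the sums were 19.6 to 24.2 CPM in KO2 and 27.4 to 33.8 CPM in KO3, against 15 to 17.7 CPM in WT. Laptm5 reached 242 CPM, and Cd68 (up to 34.7 CPM) and Coro1a (up to 10.3 CPM) had reads in all 41 libraries. Tyrobp had 1 read in 1 library and Cd79a at most 1 read in any. The 6 endothelial markers summed at day 3 to 8.13 to 9.84 CPM in KO2 and 12.7 to 13.8 CPM in KO3, against 2.23 to 3.44 CPM in WT. The part of such cells, and of the pluripotency markers, in the results was not tested, and in bulk RNA fewer cells of a type and less RNA per cell cannot be told apart. The labels do not say that libraries of a group came from separate cultures, so the p-values measure only the spread between these libraries. Changes are differences of group means of log2(CPM + 1) ± SE, a scale that understates the change of low genes. A gene is called at a limma p-value under 0.05 after Benjamini-Hochberg adjustment over all 16967 genes, with at least a 1.5-fold change (0.585 on the log2 scale) and the same direction in both depleted lines where they are averaged.

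The comparison of the depleted lines with WT asks whether loss of Esrrb changes these genes before and during the transition. More of them were higher than lower in the lines labelled as depleted, at every time. The list was chosen with earlier results of these data known. The shares of all genes beside its counts are therefore a description and not a test. In 2iL 15 of the 40 genes rose and 2 fell, while 8.11% of all genes tested rose and 7.6% fell. The counts were 21 higher and 1 lower at day 1, against 6.31% and 5.5% of all genes. At day 3 they were 28 higher and 0 lower, against 10.8% and 6.49% of all genes, and at day 5 they were 20 higher and 0 lower, against 8.89% and 11.7%. Their median change was 0.52 in 2iL, 0.71 at day 1, 1.13 at day 3 and 0.61 at day 5, where that of all genes was 0.04, 0.02, 0.03 and 0.00. Without the members that had no read in a compared group, the medians were 0.56 in 2iL, 1.14 at day 3 and 0.68 at day 5. Of the genes below an unadjusted p of 0.05, 1 was lower at day 3 and 3 at day 5, and edgeR on the recovered reads also called 0 lower at both days. Under quantile normalization day 3 gave 28 higher and 0 lower members, with 1418 higher and 1381 lower among all genes in place of 1830 and 1101. KO3 is the smaller group at days 3 and 5, and each line was also set against WT alone. KO2 gave 18, 27, 29 and 19 higher and 2, 2, 0 and 1 lower members in 2iL and at days 1, 3 and 5. KO3, whose Esrrb tags were above those of WT at days 1 and 3, gave 11, 17, 22 and 16 higher and 3, 2, 2 and 3 lower. The shares of all genes above belong to the average of the lines. They are no measure for the counts of a line alone, above all for the few lower members.

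**Figure D1:**
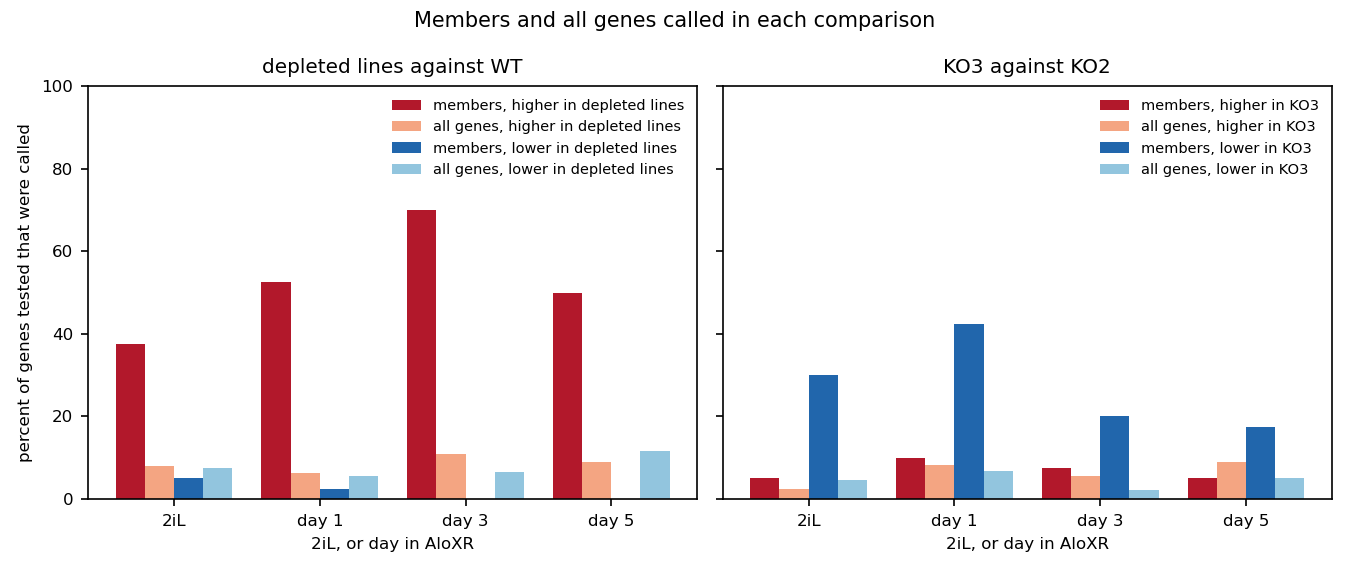
Percent of genes called higher or lower (y axis) in the depleted lines against WT (left) and in KO3 against KO2 (right) in 2iL and at each day (x axis), for the 40 members beside all 16967 genes. Members higher in the depleted lines reach 70% at day 3, where 10.8% of all genes are higher. The members were chosen with earlier results of these data known.

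In all, 30 of the 40 genes rose at 1 or more times. Those higher at all 4 times were 11, namely Gbp2, Gbp2b, Gbp7, Ifitm3, Ifitm7, Irf1, Isg15, Parp9, Parp10, Parp14 and Psmb8. These calls are on the average of the lines and do not mean a call in each line. At 1 or more times Gbp2, Irf1, Parp9, Parp10, Parp14 and Psmb8 were not called in KO3 alone, nor Ifitm7 in KO2 alone, as given below. At 3 times 7 were higher (B2m, Dtx3l, Gbp3, Ifih1, Ifitm1, Oasl2 and Psmb9). Irf9, Oas1a and Xaf1 fell at 1 time each, and 8 were called at no time (Dhx58, Eif2ak2, H2-D1, H2-K1, Ifit1, Ifit2, Ifitm2 and Rnf213). The 3 listed genes under the filter were Irf7, a transcription factor with 11 reads in all libraries, the RNA-binding Ifit3 with 9 and the ISG15 protease gene Usp18 with 17, none above 0.545 CPM.

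**Figure D2:**
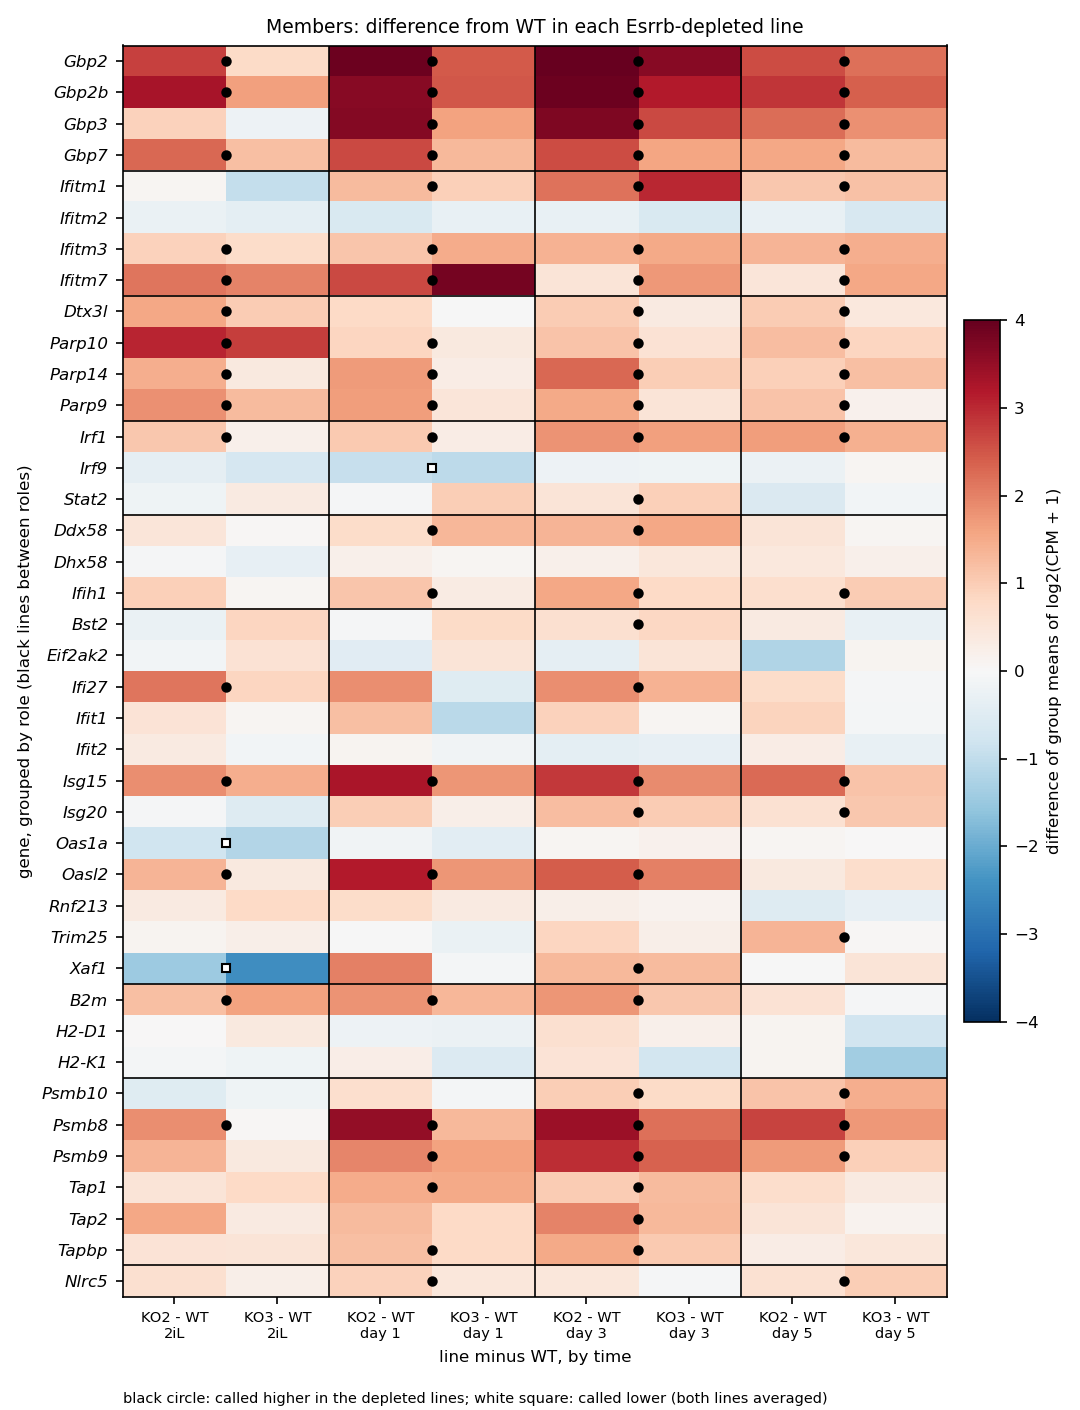
Difference of group means of log2(CPM + 1) between each depleted line and WT (colour) for the 40 members (rows, grouped by role) in 2iL and at days 1, 3 and 5 (columns, KO2 then KO3). Black circles mark the genes called higher in the depleted lines and white squares those called lower, so that the guanylate-binding proteins, Isg15 and Psmb8 stand out in red while H2-D1, Ifitm2 and Rnf213 carry no mark.

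Promoters of members that moved are printed next because the 2 response elements that define this family can be looked for in them. RefSeq promoter windows of GRCm38.p6, 250 bases before to 50 after a start site, were found for 35 of the 43 genes, 33 of which passed the filter. Letters were sought in the 250 bases before a start site, and a gene was counted where any of its windows held them. The letters GAAA, any 2 bases and GAAA, together an ISRE core, stood on either strand in 11 of these 33 (33.3%), against 2.9% of the 11585 tested genes with a window. The letters TTCNNNGAA, a GAS core that can overlap the ISRE core, stood in 8 of 33 (24.2%), against 6.9% of the tested genes with a window. Of the 11 genes with the ISRE core 8 rose at day 3, and of the 22 without it 15 did. The stretches below end at the RefSeq start site or, for Gbp2b and Gbp3, before the RefSeq gene start, and capitals mark cores on either strand. Gbp3 and Irf1 have 2 RefSeq windows each. The window with a core is shown for them, and the other holds neither core. The stretches are examples and do not show how common the cores are among members. The 4 listed guanylate-binding protein genes on the plus strand of chromosome 3 hold an ISRE core (2 in Gbp3), Gbp2 at chr3:142620503-142620662, Gbp2b at chr3:142594687-142594815, Gbp3 at chr3:142559884-142560015 and Gbp7 at chr3:142530176-142530335, the last also with 2 GAS cores.
Gbp2: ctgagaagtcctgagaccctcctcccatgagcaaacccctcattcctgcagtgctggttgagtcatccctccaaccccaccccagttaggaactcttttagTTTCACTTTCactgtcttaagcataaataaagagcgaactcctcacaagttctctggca
Gbp2b: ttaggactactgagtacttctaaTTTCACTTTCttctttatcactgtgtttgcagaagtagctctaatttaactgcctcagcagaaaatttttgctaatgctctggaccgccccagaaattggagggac
Gbp3: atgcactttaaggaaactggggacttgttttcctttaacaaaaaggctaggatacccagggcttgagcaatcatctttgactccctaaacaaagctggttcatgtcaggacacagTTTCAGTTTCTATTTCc
Gbp7: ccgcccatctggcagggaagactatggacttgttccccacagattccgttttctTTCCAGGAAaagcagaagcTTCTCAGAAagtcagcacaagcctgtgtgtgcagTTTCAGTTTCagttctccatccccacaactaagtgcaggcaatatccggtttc
Isg15 on the minus strand (chr4:156200819-156200978) and B2m on the plus strand (chr2:122147527-122147686) hold 3 ISRE cores and 1, and Psmb8 (chr17:34198035-34198194) and Irf1 (chr11:53769854-53770013), both on the plus strand, 1 GAS core each.
Isg15: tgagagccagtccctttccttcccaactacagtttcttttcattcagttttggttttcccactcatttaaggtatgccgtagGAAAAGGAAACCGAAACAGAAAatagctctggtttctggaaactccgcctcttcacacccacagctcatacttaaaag
B2m: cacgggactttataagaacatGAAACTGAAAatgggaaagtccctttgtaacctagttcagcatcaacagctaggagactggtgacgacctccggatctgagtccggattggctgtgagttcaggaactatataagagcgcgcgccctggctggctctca
Psmb8: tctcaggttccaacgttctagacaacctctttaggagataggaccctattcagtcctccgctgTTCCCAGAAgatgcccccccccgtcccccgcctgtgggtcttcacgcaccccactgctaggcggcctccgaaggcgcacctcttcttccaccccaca
Irf1: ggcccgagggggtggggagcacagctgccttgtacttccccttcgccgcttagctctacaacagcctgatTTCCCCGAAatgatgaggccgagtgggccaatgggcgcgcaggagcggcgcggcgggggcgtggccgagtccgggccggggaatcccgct
The last stretch lies between the divergent genes Tap1 and Psmb9, given on the plus strand of chr17:34187331-34187555, and holds neither core in its 225 bases.
Tap1-Psmb9: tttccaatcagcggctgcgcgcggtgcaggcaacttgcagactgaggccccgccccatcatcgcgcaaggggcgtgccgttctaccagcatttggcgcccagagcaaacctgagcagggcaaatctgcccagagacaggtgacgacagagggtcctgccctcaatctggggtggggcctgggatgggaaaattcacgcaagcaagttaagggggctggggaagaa
A match is a description of letters and not a binding site.

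Guanylate-binding proteins are large GTPases that assemble on membranes around intracellular microbes. All 4 listed copies were higher in the depleted lines at days 1, 3 and 5, and 3 of them in 2iL, and Gbp2, Gbp2b and Gbp3 had the 3 largest changes of all members at day 3. Their sequences are alike, and reads of one copy could be counted for another. In 2iL, Gbp2 held 9.64, 7.51 and 5.02 CPM in KO2 and 0.222, 1.60 and 1.92 CPM in KO3, against 0.228, 0.26 and 0.215 CPM in WT. At day 1, Gbp2 held 40.9, 48.5, 32.1 and 33 CPM in KO2 and 16.1, 11.2, 12 and 14.5 CPM in KO3, against 1.05, 0.561, 3.51 and 2.13 CPM in WT. The KO2 libraries were highest, KO3 lay between, and WT stayed below every depleted library at day 1, whereas 1 KO3 library overlapped WT in 2iL. At day 3, Gbp2 held 47.7, 45.9, 53.8 and 40.1 CPM in KO2 and 29.4 and 31.9 CPM in KO3, against 1.22, 3.71, 0.712 and 1.27 CPM in WT. At day 5, Gbp2 held 15.3, 18.5, 25.8 and 35.6 CPM in KO2 and 17.9 and 15.6 CPM in KO3, against 1.75, 1.78, 4.77 and 3.93 CPM in WT. Both lines were above all WT libraries on these days. Gbp2 rose by 1.75 ± 0.29, adjusted p = 1.19e-05 in 2iL, 3.19 ± 0.26, adjusted p = 2.53e-13 at day 1, 3.94 ± 0.28, adjusted p = 3.78e-15 at day 3 and 2.41 ± 0.28, adjusted p = 4.24e-09 at day 5. The 2iL call was not made in KO3 alone (0.77, adjusted p = 0.124).

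Gbp2b, its neighbour on chromosome 3, followed the same order of lines. In 2iL, Gbp2b held 12.9, 14 and 5.86 CPM in KO2 and 0.89, 3 and 5.06 CPM in KO3, against 0, 0.521 and 0 CPM in WT. At day 1, Gbp2b held 63.3, 70.8, 58.2 and 50.7 CPM in KO2 and 25, 26.9, 28.3 and 27.1 CPM in KO3, against 2.63, 4.11, 5.78 and 3.84 CPM in WT. No depleted library overlapped WT at either time. At day 3, Gbp2b held 76.1, 86.5, 59.6 and 70.6 CPM in KO2 and 44.4 and 42.1 CPM in KO3, against 4.46, 5.68, 3.32 and 2.53 CPM in WT. At day 5, Gbp2b held 25.3, 25.8, 39.9 and 51.9 CPM in KO2 and 25.4 and 23.8 CPM in KO3, against 2.84, 2.58, 5.23 and 5.46 CPM in WT. The lines separated from WT on these days too, and KO2 and KO3 overlapped at day 5. The rise was 2.46 ± 0.27, adjusted p = 1.25e-09 in 2iL, 3.06 ± 0.23, adjusted p = 9.31e-14 at day 1, 3.55 ± 0.25, adjusted p = 8.64e-15 at day 3 and 2.63 ± 0.25, adjusted p = 6.8e-11 at day 5. WT had a single library with reads of Gbp2b in 2iL. Gbp3 was near the limit of detection in 2iL, at 0.876, 2.03 and 1.05 CPM in KO2 and 0, 0 and 0.174 CPM in KO3, against 0.228, 0 and 0.429 CPM in WT. At day 1, Gbp3 held 22.6, 21.4, 17.9 and 19.4 CPM in KO2 and 4.14, 6.12, 4.07 and 2.48 CPM in KO3, against 0.7, 0.187, 1.24 and 0.639 CPM in WT. Every KO2 library was then above every KO3 library, and those above WT. At day 3, Gbp3 held 14.8, 19.4, 21.7 and 22.3 CPM in KO2 and 9.05 and 8.27 CPM in KO3, against 1.01, 0.655, 0.237 and 0.362 CPM in WT. At day 5, Gbp3 held 1.82, 3.31, 7.79 and 10.1 CPM in KO2 and 3.62 and 3.17 CPM in KO3, against 0, 0, 0.682 and 0.436 CPM in WT. No WT library reached the lowest depleted one on these days. Gbp3 was not called in 2iL (0.36 ± 0.29, adjusted p = 0.416) and rose by 2.65 ± 0.25, adjusted p = 1.61e-11 at day 1, 3.19 ± 0.27, adjusted p = 6.44e-13 at day 3 and 2.03 ± 0.27, adjusted p = 9.56e-08 at day 5.

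Gbp7 had the smallest rise of the 4 copies at each day of AloXR. In 2iL, Gbp7 held 6.43, 6.70 and 3.35 CPM in KO2 and 1.56, 1.80 and 2.62 CPM in KO3, against 0, 0.26 and 0.644 CPM in WT. At day 1, Gbp7 held 23.6, 22.8, 19.3 and 16.1 CPM in KO2 and 10.7, 7, 6.64 and 6.32 CPM in KO3, against 2.98, 2.43, 1.44 and 3.20 CPM in WT. All depleted libraries were above WT. At day 3, Gbp7 held 18, 17.9, 16.7 and 18.2 CPM in KO2 and 7.61 and 8.76 CPM in KO3, against 1.83, 2.40, 2.85 and 1.45 CPM in WT. At day 5, Gbp7 held 2.96, 5.44, 4.90 and 5.49 CPM in KO2 and 3.86 and 3.40 CPM in KO3, against 0.436, 1.39, 1.14 and 0.873 CPM in WT. Both lines were again apart from WT, and KO2 and KO3 overlapped at day 5. The changes were 1.76 ± 0.23, adjusted p = 6.33e-08 in 2iL, 1.97 ± 0.20, adjusted p = 1.44e-10 at day 1, 2.09 ± 0.21, adjusted p = 1.91e-10 at day 3 and 1.4 ± 0.21, adjusted p = 1.76e-06 at day 5.

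**Figure D3:**
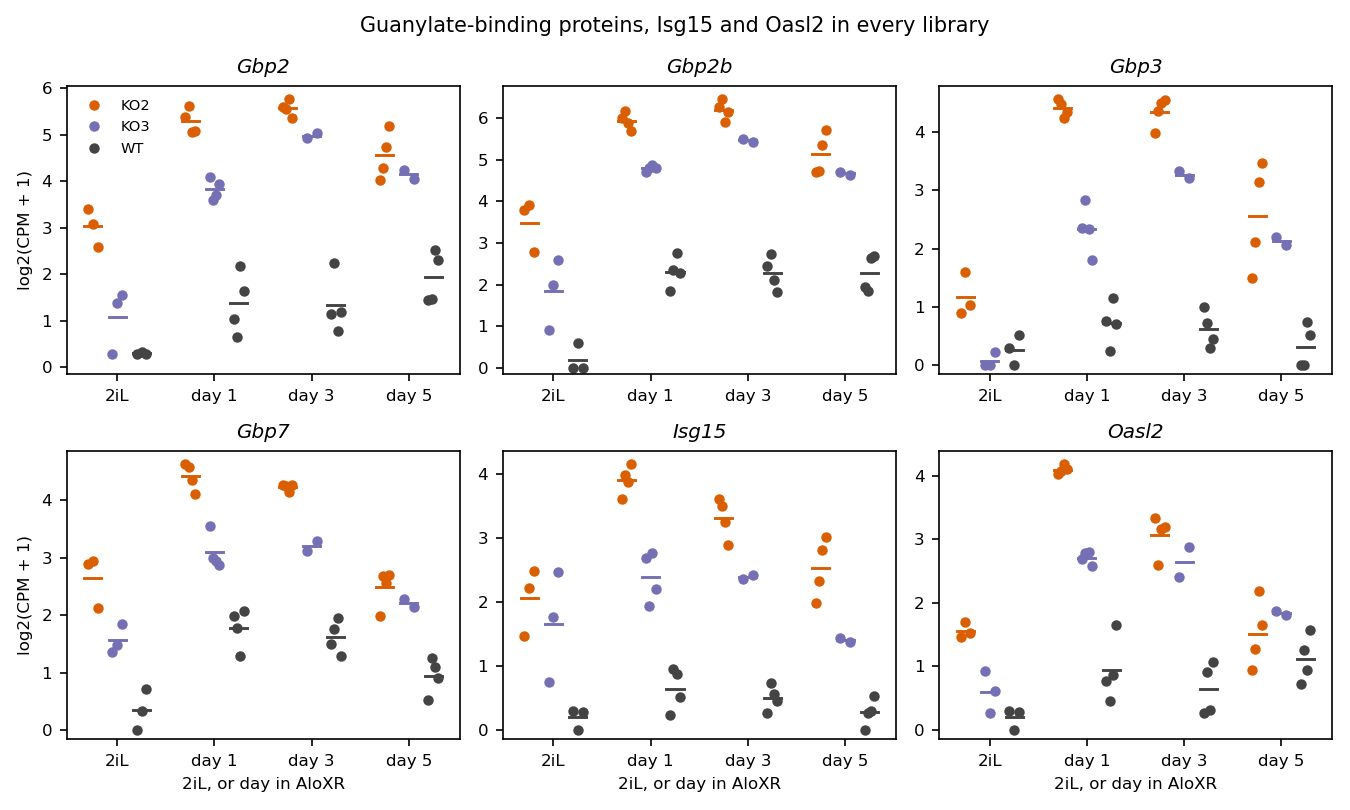
Level of Gbp2, Gbp2b, Gbp3, Gbp7, Isg15 and Oasl2 as log2(CPM + 1) (y axis) in every library by time (x axis), with KO2, KO3 and WT from left to right, points for libraries and lines for group means. At days 1 and 3 every depleted library of each gene lies above every WT library.

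Among the antiviral effectors, the ubiquitin-like modifier Isg15 and the oligoadenylate synthetase-like gene Oasl2 rose most at days 1 and 3, while Ifit1, Ifit2, Rnf213 and Eif2ak2 were not called against WT. Of the 12 effectors tested, 3 rose and 2 fell in 2iL, 2 rose at day 1, 6 at day 3 and 3 at day 5. Of all genes 8.11% rose and 7.6% fell in 2iL, and 6.31%, 10.8% and 8.89% rose at days 1, 3 and 5. In 2iL, Isg15 held 1.75, 3.65 and 4.60 CPM in KO2 and 0.667, 2.40 and 4.53 CPM in KO3, against 0.228, 0 and 0.215 CPM in WT. At day 1, Isg15 held 11.3, 14.9, 13.7 and 16.9 CPM in KO2 and 5.44, 2.84, 5.78 and 3.61 CPM in KO3, against 0.175, 0.935, 0.825 and 0.426 CPM in WT. WT stayed under 1 CPM at day 1, below every depleted library, and in 2iL the lines did not overlap with WT either. At day 3, Isg15 held 11.2, 10.3, 8.55 and 6.40 CPM in KO2 and 4.11 and 4.38 CPM in KO3, against 0.203, 0.655, 0.474 and 0.362 CPM in WT. At day 5, Isg15 held 2.96, 4.02, 6.01 and 7.09 CPM in KO2 and 1.69 and 1.59 CPM in KO3, against 0, 0.198, 0.227 and 0.436 CPM in WT. KO2 was above KO3 in every pair of libraries on these days. Isg15 rose by 1.66 ± 0.28, adjusted p = 7.6e-06 in 2iL, 2.52 ± 0.24, adjusted p = 2.24e-11 at day 1, 2.35 ± 0.26, adjusted p = 8.82e-10 at day 3 and 1.70 ± 0.26, adjusted p = 1.45e-06 at day 5.

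Oasl2 rose early and was no longer called at day 5. In 2iL, Oasl2 held 1.75, 2.23 and 1.88 CPM in KO2 and 0.89, 0.2 and 0.523 CPM in KO3, against 0.228, 0 and 0.215 CPM in WT. At day 1, Oasl2 held 15.3, 15.9, 17.2 and 16.4 CPM in KO2 and 5.44, 5.91, 6 and 4.97 CPM in KO3, against 0.7, 0.374, 0.825 and 2.13 CPM in WT. The day 1 groups stood apart, with KO2 above KO3 and KO3 above WT. At day 3, Oasl2 held 9.14, 5.05, 7.92 and 8.14 CPM in KO2 and 4.32 and 6.33 CPM in KO3, against 0.203, 0.873, 0.237 and 1.09 CPM in WT. At day 5, Oasl2 held 0.911, 1.42, 3.56 and 2.13 CPM in KO2 and 2.66 and 2.49 CPM in KO3, against 0.654, 1.39, 0.909 and 1.96 CPM in WT. Both lines were above WT at day 3 and overlapped each other, and at day 5 KO3 was above WT while KO2 overlapped it. The changes were 0.89 ± 0.26, adjusted p = 0.00847 in 2iL, 2.47 ± 0.22, adjusted p = 4.06e-12 at day 1, 2.22 ± 0.24, adjusted p = 5.32e-10 at day 3 and 0.55 ± 0.24, adjusted p = 0.0695 at day 5. The 2iL call was lost without WT library 2 (0.79, adjusted p = 0.0598) and in KO3 alone (0.40, adjusted p = 0.41). Isg20, an exonuclease, rose at day 3 (1.11 ± 0.32, adjusted p = 0.008), with 0.914 to 3.75 CPM in KO2 and 1.03 and 2.68 CPM in KO3, against 0 to 0.812 CPM in WT. That call was lost without KO3 library 2 (0.90, adjusted p = 0.0734). Its day 5 call (0.84 ± 0.32, adjusted p = 0.0405) was lost without any of WT libraries 1, 3 and 4, KO2 library 4 and KO3 libraries 1 and 2 (adjusted p = 0.0653 to 0.148) and in edgeR (1.5, adjusted p = 0.0571).

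Xaf1, which encodes an antagonist of the caspase inhibitor XIAP, was the member with the deepest fall. In 2iL, Xaf1 held 5.84, 8.93 and 14 CPM in KO2 and 2.22, 3.21 and 7.85 CPM in KO3, against 25.5, 27.6 and 27.5 CPM in WT. Every depleted library was below WT, and Xaf1 fell by 1.98 ± 0.28, adjusted p = 3.71e-07. At day 1, Xaf1 held 8.79, 9.89, 6.06 and 8.45 CPM in KO2 and 0.653, 1.75, 0.857 and 1.58 CPM in KO3, against 1.4, 1.5, 1.65 and 0.639 CPM in WT. KO2 was above WT and KO3 overlapped it, and with a change of 2.02 in KO2 and -0.06 in KO3 the average was not called (0.98 ± 0.24, adjusted p = 0.00244). At day 3, Xaf1 held 0.914, 2.02, 2.08 and 2.52 CPM in KO2 and 1.44 and 2.19 CPM in KO3, against 0.203, 0, 0.474 and 0 CPM in WT. At day 5, Xaf1 held 0.455, 0.237, 0.445 and 0.886 CPM in KO2 and 1.21 and 1.13 CPM in KO3, against 0, 0.396, 0.455 and 1.53 CPM in WT. The depleted lines were above WT at day 3 (1.28 ± 0.26, adjusted p = 0.000207), at few reads, and overlapped it at day 5 (0.26 ± 0.26, adjusted p = 0.49). Ifi27, a mitochondrial interferon-inducible protein, stood in 2iL at 31.2, 25.4 and 17.2 CPM in KO2 and 8.90, 10.2 and 8.54 CPM in KO3, against 5.46, 4.69 and 3.86 CPM in WT. At day 1, Ifi27 held 9.79, 10.8, 8.85 and 15.3 CPM in KO2 and 1.31, 1.53, 0.857 and 2.03 CPM in KO3, against 2.28, 2.43, 1.86 and 2.77 CPM in WT. KO2 was highest at both times, while KO3 overlapped WT at day 1. At day 3, Ifi27 held 5.94, 6.06, 2.08 and 2.91 CPM in KO2 and 2.06 and 3.16 CPM in KO3, against 0.609, 0.437, 0.474 and 0 CPM in WT. At day 5, Ifi27 held 2.50, 0.71, 0.668 and 1.59 CPM in KO2 and 0.725 and 0 CPM in KO3, against 0.436, 0.198, 0.682 and 0.218 CPM in WT. Both depleted lines were above WT at day 3 and overlapped each other, and all 3 lines were near the limit of detection at day 5. Ifi27 rose in 2iL (1.5 ± 0.26, adjusted p = 2.25e-05) and at day 3 (1.63 ± 0.25, adjusted p = 1.52e-06), and was not called at day 1 (0.69 ± 0.23, adjusted p = 0.0253) or day 5 (0.33 ± 0.25, adjusted p = 0.323). At day 1 the mean was above WT in KO2 and below it in KO3, so the call failed on direction.

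Ifit1, which binds viral RNA caps, was split between the lines. In 2iL, Ifit1 held 0, 1.62 and 0.418 CPM in KO2 and 0, 0.401 and 0 CPM in KO3, against 0.228, 0 and 0 CPM in WT. At day 1, Ifit1 held 4.27, 6.67, 8.85 and 4.91 CPM in KO2 and 0.435, 0.219, 0.428 and 0.678 CPM in KO3, against 1.4, 2.24, 3.10 and 1.71 CPM in WT. KO2 was above WT and KO3 below it at day 1, so that the change was 1.19 in KO2 and -1.09 in KO3. At day 3, Ifit1 held 0.914, 1.26, 1.46 and 0.388 CPM in KO2 and 0.206 and 0 CPM in KO3, against 0, 0, 0 and 0.181 CPM in WT. At day 5, Ifit1 held 0.455, 0.473, 2.23 and 1.06 CPM in KO2 and 0 and 0 CPM in KO3, against 0.218, 0, 0 and 0 CPM in WT. KO2 was above all KO3 libraries on these days, and the averages of the lines were not called at day 3 (0.49 ± 0.24, adjusted p = 0.119) or at day 5 (adjusted p = 0.186). Bst2, the virion-tethering protein tetherin, held 13.1, 11 and 10.5 CPM in KO2 and 39.8, 30.4 and 15.2 CPM in KO3, against 18, 16.1 and 9.44 CPM in WT in 2iL. At day 1, Bst2 held 19.3, 23.7, 17 and 16.4 CPM in KO2 and 40, 31.3, 31.5 and 34.6 CPM in KO3, against 20, 23.4, 18.4 and 17.3 CPM in WT. KO3 was above KO2 at both times, overlapping WT in 2iL and above it at day 1. At day 3, Bst2 held 27.6, 8.83, 13.5 and 8.53 CPM in KO2 and 15.8 and 14.1 CPM in KO3, against 6.49, 8.29, 8.78 and 8.50 CPM in WT. At day 5, Bst2 held 14.6, 15.9, 14 and 13.6 CPM in KO2 and 10.9 and 7.47 CPM in KO3, against 8.73, 9.11, 14.1 and 14 CPM in WT. KO3 was above WT at day 3 while KO2 overlapped it, and at day 5 KO2 was above KO3 and both overlapped WT. Bst2 rose at day 3 (0.74 ± 0.23, adjusted p = 0.0115), a call lost without KO2 library 1 (0.57, adjusted p = 0.0278) or WT library 1 (0.65, adjusted p = 0.0508). The 30 nearest genes on chromosome 8 had a median change of 0.26 at that time, whose part in the call was not tested.

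Eif2ak2, the RNA-dependent kinase PKR, was not called against WT at any time, and KO3 was above KO2 at all 4. In 2iL, Eif2ak2 held 16.6, 16.6 and 18.6 CPM in KO2 and 22.5, 32.3 and 31 CPM in KO3, against 15.9, 19.8 and 20.8 CPM in WT. At day 1, Eif2ak2 held 9.04, 8.97, 9.55 and 10.4 CPM in KO2 and 16.3, 21.4, 21.9 and 20.1 CPM in KO3, against 13.5, 13.1, 11.6 and 15.8 CPM in WT. KO3 was highest at both times, KO2 overlapped WT in 2iL and lay below it at day 1. At day 3, Eif2ak2 held 9.36, 5.30, 9.17 and 6.01 CPM in KO2 and 13.6 and 14.8 CPM in KO3, against 9.74, 9.17, 10.7 and 9.05 CPM in WT. At day 5, Eif2ak2 held 7.06, 6.86, 2.89 and 3.37 CPM in KO2 and 14 and 12.5 CPM in KO3, against 12.4, 13.7, 12.7 and 9.82 CPM in WT. KO3 was again above KO2, with KO2 overlapping WT at day 3 and KO3 overlapping WT at day 5. The 30 nearest genes on chromosome 17 were higher in KO3 than in KO2 by a median of 0.45 in 2iL, 0.59 at day 1, 0.70 at day 3 and 0.62 at day 5, and the part of this stretch in the difference was not tested. Trim25, a ubiquitin ligase that acts on the RNA sensor RIG-I, held 77.7, 92.5 and 96.5 CPM in KO2 and 101, 83.1 and 110.0 CPM in KO3, against 67.1, 90.1 and 91.8 CPM in WT in 2iL. At day 1, Trim25 held 85.1, 77.3, 82.7 and 66.8 CPM in KO2 and 59.4, 65, 60.8 and 71.8 CPM in KO3, against 77.9, 75.9, 79 and 79.5 CPM in WT. The lines overlapped in 2iL, and KO3 was below WT at day 1. At day 3, Trim25 held 48, 65.4, 47.7 and 69.4 CPM in KO2 and 38.9 and 33.8 CPM in KO3, against 35.7, 32.5, 28 and 28.4 CPM in WT. At day 5, Trim25 held 44.6, 35.7, 44.3 and 43.6 CPM in KO2 and 18.4 and 14.7 CPM in KO3, against 14.6, 14.7, 18.4 and 15.9 CPM in WT. KO2 was above all other libraries on both days, and KO3 overlapped WT. Trim25 rose at day 5 (0.70 ± 0.12, adjusted p = 1.36e-05), but not in KO3 alone (0.05, adjusted p = 0.851), nor without KO3 library 1, when the remaining KO3 library lay below the WT mean (0.62, adjusted p = 0.000595).

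Rnf213, a giant ubiquitin ligase, held 15.8, 27.4 and 25.1 CPM in KO2 and 19.6, 34.1 and 42.7 CPM in KO3, against 15.5, 18.7 and 17.2 CPM in WT in 2iL. At day 1, Rnf213 held 10.3, 9.20, 10.2 and 6.54 CPM in KO2 and 8.92, 7, 4.07 and 7.23 CPM in KO3, against 3.85, 4.49, 6.81 and 5.12 CPM in WT. In 2iL KO3 was above WT and KO2 overlapped it, and at day 1 both overlapped it. At day 3, Rnf213 held 2.74, 1.77, 2.71 and 1.94 CPM in KO2 and 1.85 and 2.19 CPM in KO3, against 1.62, 1.53, 4.03 and 0.724 CPM in WT. At day 5, Rnf213 held 1.14, 0.473, 2.45 and 1.59 CPM in KO2 and 2.17 and 1.13 CPM in KO3, against 1.96, 1.78, 2.50 and 3.06 CPM in WT. The lines overlapped, and no difference from WT was called at any time. Oas1a, an oligoadenylate synthetase, fell in 2iL (-1.0 ± 0.22, adjusted p = 0.00053), with 0.609 to 1.67 CPM in KO2 and 0.222 to 0.801 CPM in KO3, against 1.04 to 4.72 CPM in WT, and stayed under 1 CPM in every library of AloXR. Ifit2, another RNA-binding protein, was between 0 and 4.80 CPM and ranged from -0.36 to 0.12 against WT with no call.

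The RNA sensors were low. Ifih1, the sensor MDA5, never exceeded 15 reads. In 2iL, Ifih1 held 0.876, 1.42 and 0.628 CPM in KO2 and 0, 0 and 0.174 CPM in KO3, against 0, 0 and 0 CPM in WT. At day 1, Ifih1 held 2.01, 0.92, 1.4 and 1.91 CPM in KO2 and 0.218, 0.219, 0 and 2.03 CPM in KO3, against 0, 0, 0.825 and 0 CPM in WT. KO2 was above all WT libraries at both times, and KO3 overlapped WT. At day 3, Ifih1 held 3.43, 2.78, 2.50 and 2.33 CPM in KO2 and 0.823 and 1.70 CPM in KO3, against 0.203, 0, 0.237 and 0.724 CPM in WT. At day 5, Ifih1 held 0.228, 0.71, 1.11 and 0.709 CPM in KO2 and 1.69 and 0.679 CPM in KO3, against 0.218, 0, 0 and 0 CPM in WT. All depleted libraries were above WT on these days, at the closest with 0.228 CPM in a KO2 library against 0.218 CPM in a WT library at day 5, which is 1 read each. Ifih1 rose at day 1 (0.72 ± 0.22, adjusted p = 0.0151), day 3 (1.19 ± 0.24, adjusted p = 0.000164) and day 5 (0.84 ± 0.24, adjusted p = 0.00559). The day 1 call was lost without KO3 library 4 (0.54, adjusted p = 0.046) or any of WT libraries 1, 2 and 4, and the day 5 call without KO3 library 1 (0.67, adjusted p = 0.0591). Ddx58, the sensor RIG-I, rose at day 1 (1.02 ± 0.24, adjusted p = 0.0013) and day 3 (1.45 ± 0.26, adjusted p = 2.48e-05), at 6.25 to 10.3 CPM in KO2 and 8.64 and 8.76 CPM in KO3, against 1.42 to 3.62 CPM in WT on day 3. Dhx58, the regulator LGP2, stayed between 0 and 1.95 CPM and was not called.

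The Ifitm genes encode small membrane proteins that hinder virus entry, and some, such as Ifitm1 and Ifitm3, are expressed in early embryos and germ cells. Ifitm3 and Ifitm7 were higher in the depleted lines at all 4 times and Ifitm1 at days 1, 3 and 5, whereas Ifitm2 was not called. Their sequences are alike, so reads of one copy could be counted for another. In 2iL, Ifitm1 held 88.5, 106 and 129.5 CPM in KO2 and 31.6, 52.1 and 81.6 CPM in KO3, against 91.2, 99.7 and 112 CPM in WT. At day 1, Ifitm1 held 33.9, 43.2, 25.6 and 30.8 CPM in KO2 and 32, 24.9, 24.6 and 25.1 CPM in KO3, against 14.7, 12.2, 12.6 and 13.2 CPM in WT. KO3 was below WT and KO2 overlapped it in 2iL, but at day 1 all depleted libraries were above WT. At day 3, Ifitm1 held 10.7, 11.6, 8.75 and 6.40 CPM in KO2 and 16 and 18 CPM in KO3, against 0.609, 1.75, 1.19 and 1.63 CPM in WT. At day 5, Ifitm1 held 4.33, 5.68, 5.57 and 7.09 CPM in KO2 and 6.52 and 5.44 CPM in KO3, against 1.53, 2.77, 3.18 and 1.31 CPM in WT. Both lines were above WT on these days. The changes were -0.44 ± 0.21, adjusted p = 0.148 in 2iL, 1.11 ± 0.19, adjusted p = 1.21e-05 at day 1, 2.59 ± 0.20, adjusted p = 5.4e-14 at day 3 and 1.13 ± 0.20, adjusted p = 2.31e-05 at day 5.

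Ifitm3 had the highest level of the family. In 2iL, Ifitm3 held 177, 225 and 337 CPM in KO2 and 154, 209 and 297 CPM in KO3, against 94.2, 123 and 173 CPM in WT. At day 1, Ifitm3 held 168, 192, 151 and 139 CPM in KO2 and 219, 207, 208 and 208 CPM in KO3, against 69.8, 59.7, 93.1 and 79.7 CPM in WT. A KO3 library overlapped WT in 2iL, and none did at day 1. At day 3, Ifitm3 held 124, 126, 137 and 132 CPM in KO2 and 134 and 144 CPM in KO3, against 46.3, 53.7, 45.3 and 48.8 CPM in WT. At day 5, Ifitm3 held 71.7, 99.4, 123 and 141 CPM in KO2 and 111 and 114 CPM in KO3, against 34.9, 36.7, 44.1 and 49.5 CPM in WT. Every depleted library was above WT, with KO2 and KO3 overlapping at both days. Ifitm3 rose by 0.83 ± 0.19, adjusted p = 0.000945 in 2iL, 1.29 ± 0.16, adjusted p = 1.09e-07 at day 1, 1.45 ± 0.17, adjusted p = 3.38e-08 at day 3 and 1.39 ± 0.17, adjusted p = 9.7e-08 at day 5. The library numbered 3 had the highest Ifitm3 of each line in 2iL, and without these 3 libraries 14 of the 40 genes rose there and 2 fell. Ifitm2 held 31.9 to 93.3 CPM in KO2 and 34.3 to 91 CPM in KO3, against 51.8 to 122 CPM in WT, with changes of -0.33, -0.46, -0.46 and -0.48 from 2iL to day 5, below the 1.5-fold limit.

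Ifitm7 was highest in KO3 on the days of AloXR. In 2iL, Ifitm7 held 7.01, 10.1 and 17.4 CPM in KO2 and 6.45, 10 and 13.2 CPM in KO3, against 2.28, 1.30 and 1.5 CPM in WT. At day 1, Ifitm7 held 15.8, 9.66, 13 and 19.9 CPM in KO2 and 33.3, 28, 30.6 and 46.1 CPM in KO3, against 1.05, 0.935, 2.27 and 1.71 CPM in WT. The depleted lines were above WT at both times, and at day 1 every KO3 library was above every KO2 library. At day 3, Ifitm7 held 4.57, 8.58, 8.55 and 14 CPM in KO2 and 23.9 and 17.5 CPM in KO3, against 6.29, 3.71, 6.17 and 6.33 CPM in WT. At day 5, Ifitm7 held 9.11, 4.50, 4.90 and 4.25 CPM in KO2 and 10.6 and 14.9 CPM in KO3, against 3.93, 2.38, 4.32 and 4.15 CPM in WT. KO3 stayed above WT, and KO2 overlapped it on both days. Ifitm7 rose by 2.07 ± 0.27, adjusted p = 6.3e-08 in 2iL, 3.24 ± 0.23, adjusted p = 6.1e-15 at day 1, 1.12 ± 0.25, adjusted p = 0.000669 at day 3 and 1.02 ± 0.25, adjusted p = 0.00153 at day 5. In KO2 alone the day 3 change was 0.52, adjusted p = 0.178 and the day 5 change 0.48, adjusted p = 0.202.

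**Figure D4:**
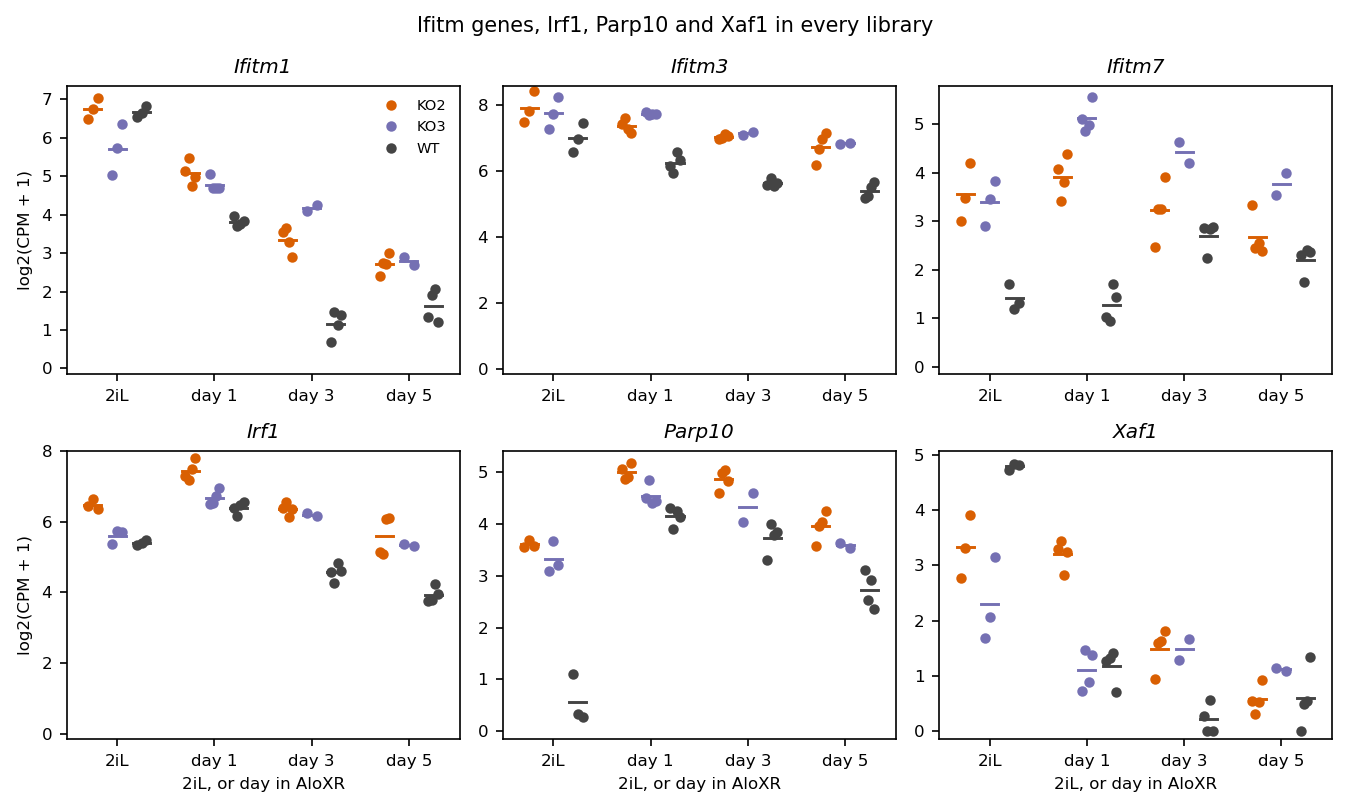
Level of Ifitm1, Ifitm3, Ifitm7, Irf1, Parp10 and Xaf1 as log2(CPM + 1) (y axis) in every library by time (x axis), with KO2, KO3 and WT from left to right, points for libraries and lines for group means. Ifitm1 and Xaf1 fall in WT from 2iL to 0.609 to 1.75 CPM and 0 to 0.474 CPM at day 3. At day 5 they stand at 1.31 to 3.18 CPM and 0 to 1.53 CPM. Parp10 starts in WT at 0.215 to 1.14 CPM in 2iL, below all depleted libraries.

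Parp9, Parp14 and Dtx3l lie together on chromosome 16, and Parp10 on chromosome 15. Parp9 and Dtx3l proteins form a complex that ADP-ribosylates ubiquitin and promotes interferon-induced transcription, and Parp10 and Parp14 transfer single ADP-ribose units. All 4 were higher in the depleted lines in 2iL, at day 3 and at day 5. In 2iL, Parp10 held 10.8, 12 and 10.9 CPM in KO2 and 7.56, 11.8 and 8.19 CPM in KO3, against 1.14, 0.26 and 0.215 CPM in WT. At day 1, Parp10 held 32.1, 28.3, 29.1 and 34.9 CPM in KO2 and 21.5, 27.8, 20.1 and 20.8 CPM in KO3, against 18.9, 14, 18 and 16.6 CPM in WT. All depleted libraries were above WT at both times, by a wide margin in 2iL. At day 3, Parp10 held 23.3, 30.5, 32.1 and 27.3 CPM in KO2 and 15.4 and 23.4 CPM in KO3, against 8.93, 15.1, 12.8 and 13.4 CPM in WT. At day 5, Parp10 held 10.9, 14.7, 15.4 and 18.1 CPM in KO2 and 11.4 and 10.6 CPM in KO3, against 7.63, 4.76, 6.59 and 4.15 CPM in WT. No library of the depleted lines overlapped WT on these days. The rise was 2.90 ± 0.19, adjusted p = 3.65e-16 in 2iL, where 2 of the 3 WT libraries held 1 read, 0.62 ± 0.17, adjusted p = 0.00507 at day 1, 0.85 ± 0.18, adjusted p = 0.000284 at day 3 and 1.04 ± 0.18, adjusted p = 1.41e-05 at day 5. The day 1 call was lost without WT library 2 (0.54, adjusted p = 0.0369) or KO3 library 2 (0.57, adjusted p = 0.0134), and KO3 alone was not called at day 1 (0.40, adjusted p = 0.139) or day 3 (0.58, adjusted p = 0.0652).

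In 2iL, Parp9 held 22.2, 26.6 and 32.2 CPM in KO2 and 13.3, 19 and 20.9 CPM in KO3, against 8.42, 4.95 and 7.29 CPM in WT. At day 1, Parp9 held 40.4, 43.5, 47.5 and 41.2 CPM in KO2 and 18.5, 13.1, 21.4 and 21.5 CPM in KO3, against 11.7, 13.1, 12.6 and 14.1 CPM in WT. KO2 was highest at both times, and KO3 was above WT in 2iL and overlapped it at day 1. At day 3, Parp9 held 29.9, 31.3, 30 and 29.7 CPM in KO2 and 16.7 and 13.1 CPM in KO3, against 7.51, 14.2, 11.1 and 8.32 CPM in WT. At day 5, Parp9 held 8.42, 15.6, 18.7 and 16.8 CPM in KO2 and 6.52 and 7.25 CPM in KO3, against 4.14, 8.92, 5.68 and 5.89 CPM in WT. KO2 was apart from WT at day 3 and overlapped it at day 5, and KO3 overlapped WT on both days. Parp9 rose by 1.55 ± 0.20, adjusted p = 7.37e-08 in 2iL, 1.07 ± 0.18, adjusted p = 8.05e-06 at day 1, 1.01 ± 0.19, adjusted p = 5.8e-05 at day 3 and 0.66 ± 0.19, adjusted p = 0.00625 at day 5. KO3 alone was not called at day 1 (0.48, adjusted p = 0.0827), day 3 (0.52, adjusted p = 0.126) or day 5 (0.18, adjusted p = 0.633), and the day 5 call was lost without WT library 1 (0.51, adjusted p = 0.0535). Dtx3l, its divergent neighbour, rose by 1.27 ± 0.21, adjusted p = 5.4e-06 in 2iL, 0.69 ± 0.19, adjusted p = 0.00591 at day 3 and 0.72 ± 0.19, adjusted p = 0.00345 at day 5, and was not called at day 1 (0.40 ± 0.18, adjusted p = 0.107).

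In 2iL, Parp14 held 4.96, 5.28 and 4.60 CPM in KO2 and 1.78, 1.80 and 1.92 CPM in KO3, against 1.14, 2.34 and 0.429 CPM in WT. At day 1, Parp14 held 18.1, 14.9, 17.7 and 13.1 CPM in KO2 and 4.57, 6.78, 7.50 and 3.39 CPM in KO3, against 2.80, 3.37, 5.57 and 5.54 CPM in WT. KO2 was above the other lines at both times, and KO3 overlapped WT. At day 3, Parp14 held 9.82, 10.8, 12.5 and 9.70 CPM in KO2 and 4.32 and 3.16 CPM in KO3, against 2.84, 0.655, 0.949 and 1.63 CPM in WT. At day 5, Parp14 held 4.33, 2.37, 2.89 and 5.31 CPM in KO2 and 5.07 and 3.85 CPM in KO3, against 0.873, 2.77, 1.59 and 0.655 CPM in WT. Both lines were above WT at day 3, and KO2 overlapped WT at day 5. Parp14 rose by 0.92 ± 0.27, adjusted p = 0.0103 in 2iL, 1.0 ± 0.23, adjusted p = 0.00139 at day 1, 1.63 ± 0.25, adjusted p = 2.31e-06 at day 3 and 1.09 ± 0.25, adjusted p = 0.000818 at day 5. The 2iL call was lost without WT library 3 (0.62, adjusted p = 0.129) and in KO3 alone (0.39, adjusted p = 0.478), as was the day 1 call in KO3 alone (0.29, adjusted p = 0.481).

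Irf1, the transcription factor that drives many interferon gamma targets including peptide loading genes, was the factor with the clearest rise. In 2iL, Irf1 held 85.6, 99.4 and 80.6 CPM in KO2 and 40.5, 52.3 and 51.4 CPM in KO3, against 39.4, 40.9 and 43.6 CPM in WT. At day 1, Irf1 held 157, 145, 178 and 223 CPM in KO2 and 90.3, 91.4, 106 and 123 CPM in KO3, against 82.3, 71.4, 87.7 and 94.2 CPM in WT. KO2 was above all other libraries, and KO3 overlapped WT at both times. At day 3, Irf1 held 83.4, 94.4, 69 and 81.4 CPM in KO2 and 74.6 and 70.6 CPM in KO3, against 22.9, 18.1, 27.3 and 23.5 CPM in WT. At day 5, Irf1 held 34.4, 33.4, 66.8 and 67.7 CPM in KO2 and 40.3 and 38.5 CPM in KO3, against 12.4, 12.7, 17.7 and 14.4 CPM in WT. The depleted lines were then apart from WT, and KO2 and KO3 overlapped. Irf1 rose by 0.64 ± 0.17, adjusted p = 0.00345 in 2iL, 0.67 ± 0.14, adjusted p = 0.000574 at day 1, 1.72 ± 0.16, adjusted p = 7.28e-12 at day 3 and 1.55 ± 0.16, adjusted p = 1.72e-10 at day 5. KO3 alone was not called in 2iL (0.21, adjusted p = 0.549) or at day 1 (0.28, adjusted p = 0.236). Stat2, a part of the type I interferon factor, rose at day 3 (0.73 ± 0.20, adjusted p = 0.00496), with 10.8 to 16.5 CPM in KO2 and 18 and 19.3 CPM in KO3, against 6.51 to 14.4 CPM in WT, and that call was lost without WT library 4 (0.58, adjusted p = 0.0423). Irf9, the DNA-binding part of the same factor, fell at day 1 (-0.98 ± 0.23, adjusted p = 0.00141), with 1.16 to 3.26 CPM in KO2 and 1.29 to 2.26 CPM in KO3, against 3.92 to 5.97 CPM in WT. The 30 nearest genes on chromosome 14 had a median change of -1.0 at the same time and of -0.91, -1.06 and -0.78 in 2iL, at day 3 and at day 5, and the part of this stretch in the fall was not tested.

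MHC class I molecules show peptides at the cell surface, with a heavy chain such as H2-K1 or H2-D1 paired with B2m. The immunoproteasome subunits Psmb8, Psmb9 and Psmb10 take part in making the peptides, Tap1 and Tap2 carry them into the endoplasmic reticulum and tapasin (Tapbp) helps to load them. The supply genes and B2m were higher in the depleted lines at day 3, all 6 and B2m, while neither heavy chain was called. Of the 6 supply genes 1 rose in 2iL, 4 at day 1, 6 at day 3 and 3 at day 5, and none fell. The shares of all genes that rose were 8.11%, 6.31%, 10.8% and 8.89% at these times. In 2iL, Psmb8 held 3.21, 3.86 and 2.51 CPM in KO2 and 0.222, 0.401 and 0 CPM in KO3, against 0, 0.26 and 0.215 CPM in WT. At day 1, Psmb8 held 33.6, 39.1, 27.7 and 32.2 CPM in KO2 and 6.09, 7, 6.21 and 6.10 CPM in KO3, against 0.7, 1.68, 3.30 and 2.98 CPM in WT. KO2 was above WT at both times, and KO3 only at day 1. At day 3, Psmb8 held 36.3, 29.8, 29.6 and 27.7 CPM in KO2 and 12.1 and 13.1 CPM in KO3, against 2.64, 3.49, 1.42 and 0.905 CPM in WT. At day 5, Psmb8 held 5.69, 8.04, 13.6 and 12.4 CPM in KO2 and 4.11 and 4.76 CPM in KO3, against 0.218, 0.594, 1.14 and 0.655 CPM in WT. The order KO2, KO3 and WT held without overlap on both days. Psmb8 rose by 0.95 ± 0.26, adjusted p = 0.00468 in 2iL, 2.41 ± 0.22, adjusted p = 1.06e-11 at day 1, 2.82 ± 0.24, adjusted p = 9.18e-13 at day 3 and 2.22 ± 0.24, adjusted p = 9.24e-10 at day 5. The 2iL call was lost without WT library 1 (0.85, adjusted p = 0.0409) or KO3 library 2 (0.90, adjusted p = 0.0122), in KO3 alone (0.05, adjusted p = 0.951) and in edgeR (2.22, adjusted p = 0.1). Without either library the KO3 mean lay below that of WT, so the call failed on direction.

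Psmb9 shares an interval with Tap1 on chromosome 17, printed above. In 2iL, Psmb9 held 7.89, 6.29 and 2.30 CPM in KO2 and 4.67, 1.4 and 1.05 CPM in KO3, against 1.82, 2.08 and 0.429 CPM in WT. At day 1, Psmb9 held 25.6, 25.8, 21 and 11.2 CPM in KO2 and 16.5, 15.7, 13.3 and 16.5 CPM in KO3, against 4.03, 3.93, 3.71 and 5.97 CPM in WT. In 2iL KO2 was above WT and KO3 overlapped it, and at day 1 both were above it. At day 3, Psmb9 held 30.2, 24.7, 18.1 and 25 CPM in KO2 and 17.9 and 13.9 CPM in KO3, against 1.42, 2.62, 3.08 and 2.17 CPM in WT. At day 5, Psmb9 held 26.9, 8.52, 13.6 and 5.14 CPM in KO2 and 6.04 and 6.79 CPM in KO3, against 4.80, 1.59, 4.09 and 1.75 CPM in WT. WT was below all depleted libraries on both days, and KO2 and KO3 overlapped at day 5. The changes were 0.88 ± 0.35, adjusted p = 0.0723 in 2iL, 1.80 ± 0.31, adjusted p = 2.85e-05 at day 1, 2.65 ± 0.33, adjusted p = 6.74e-08 at day 3 and 1.33 ± 0.33, adjusted p = 0.0019 at day 5, the last not called in KO3 alone (0.96, adjusted p = 0.0886). Psmb10 rose at day 3 (0.87 ± 0.15, adjusted p = 1.41e-05) and day 5 (1.30 ± 0.15, adjusted p = 4.15e-09), with 37.6 to 70 CPM in KO2 and 61.1 and 67.1 CPM in KO3, against 19 to 27.5 CPM in WT at day 5. The 30 nearest genes on chromosome 8 had medians of 0.32 and 0.26 at these days, and their part in the rise was not tested.

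In 2iL, Tap1 held 5.55, 6.09 and 3.77 CPM in KO2 and 10.7, 7.21 and 3.14 CPM in KO3, against 8.19, 3.90 and 0.644 CPM in WT. At day 1, Tap1 held 25.6, 22.8, 28.6 and 24.5 CPM in KO2 and 27.4, 25.6, 25.1 and 25.1 CPM in KO3, against 8.58, 8.79, 9.70 and 6.61 CPM in WT. The lines overlapped in 2iL, and at day 1 both depleted lines were above WT and overlapped each other. At day 3, Tap1 held 20.1, 29, 29 and 26.8 CPM in KO2 and 33.1 and 29.2 CPM in KO3, against 14.6, 10.9, 13 and 11 CPM in WT. At day 5, Tap1 held 23.2, 27.7, 23.4 and 24.1 CPM in KO2 and 18.4 and 19.2 CPM in KO3, against 12.9, 18.4, 14.5 and 12.9 CPM in WT. The groups were apart at day 3, and at day 5 KO2 was above WT while KO3 and WT met at 18.4 CPM. Tap1 rose at day 1 (1.51 ± 0.24, adjusted p = 6.66e-06) and day 3 (1.14 ± 0.26, adjusted p = 0.000758), and was not called in 2iL (0.67 ± 0.27, adjusted p = 0.0785) or at day 5 (0.53 ± 0.26, adjusted p = 0.107). Tapbp rose at day 1 (1.0 ± 0.11, adjusted p = 4e-09) and day 3 (1.28 ± 0.12, adjusted p = 2.91e-11), with 70 to 85.5 CPM in KO2 and 57 and 58.1 CPM in KO3, against 20.1 to 36.2 CPM in WT at day 3. Tap2 rose at day 3 (1.63 ± 0.48, adjusted p = 0.0115), a call lost without WT library 4 (1.31, adjusted p = 0.0657).

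In 2iL, B2m held 126, 95.6 and 74.9 CPM in KO2 and 176, 129.8 and 91.2 CPM in KO3, against 48.9, 48.7 and 29.6 CPM in WT. At day 1, B2m held 62.5, 51.5, 54.3 and 39.3 CPM in KO2 and 35.5, 32.6, 38.8 and 40.7 CPM in KO3, against 12.4, 12.2, 16.3 and 15.1 CPM in WT. All depleted libraries were above WT at both times. At day 3, B2m held 167, 118, 118 and 95.8 CPM in KO2 and 77.7 and 73.2 CPM in KO3, against 27.8, 46.3, 33 and 36.5 CPM in WT. At day 5, B2m held 157, 123, 124 and 119 CPM in KO2 and 94.9 and 73.6 CPM in KO3, against 111, 91.3, 73.2 and 77.5 CPM in WT. The lines were apart at day 3, and at day 5 KO3 overlapped WT and KO2 stayed above it. B2m rose by 1.41 ± 0.19, adjusted p = 2.16e-07 in 2iL, 1.57 ± 0.16, adjusted p = 8.31e-10 at day 1 and 1.42 ± 0.18, adjusted p = 4.07e-08 at day 3, and was not called at day 5 (0.25 ± 0.18, adjusted p = 0.28). In 2iL, H2-K1 held 28.9, 21.9 and 9.42 CPM in KO2 and 24.9, 16 and 12 CPM in KO3, against 22.5, 19.8 and 16.3 CPM in WT. At day 1, H2-K1 held 45.7, 41.4, 45.4 and 57 CPM in KO2 and 25, 21.4, 29.6 and 30.9 CPM in KO3, against 38.7, 36.3, 42.9 and 37.9 CPM in WT. All lines overlapped in 2iL, and at day 1 KO3 was below all KO2 and WT libraries. At day 3, H2-K1 held 64.4, 43.1, 67.9 and 42.1 CPM in KO2 and 19.1 and 23.4 CPM in KO3, against 40, 37.3, 37.2 and 30.2 CPM in WT. At day 5, H2-K1 held 51.5, 69.6, 70.8 and 74.2 CPM in KO2 and 26.3 and 19.9 CPM in KO3, against 65.2, 67.6, 55.7 and 57.4 CPM in WT. KO3 was lowest and KO2 above WT at day 3, and KO2 overlapped WT at day 5. The changes of H2-K1 were -0.13 ± 0.21, adjusted p = 0.716 in 2iL, -0.13 ± 0.18, adjusted p = 0.664 at day 1, -0.10 ± 0.19, adjusted p = 0.769 at day 3 and -0.64 ± 0.19, adjusted p = 0.00958 at day 5, the last with opposite directions in the lines. H2-D1 held 6.07 to 29.1 CPM in KO2 and 11.1 to 19.9 CPM in KO3, against 10.2 to 26.8 CPM in WT, with changes between -0.33 at day 5 and 0.42 at day 3 and no call. Class I genes are alike in sequence, and reads of one could be counted for another. Nlrc5, the transactivator of class I genes, stayed at or under 2.51 CPM, and its calls at day 1 (0.69 ± 0.20, adjusted p = 0.00994) and day 5 (0.79 ± 0.22, adjusted p = 0.00401) rest on few reads, the first being lost without WT library 1 (0.55, adjusted p = 0.0849) and in edgeR (1.57, adjusted p = 0.073).

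**Figure D5:**
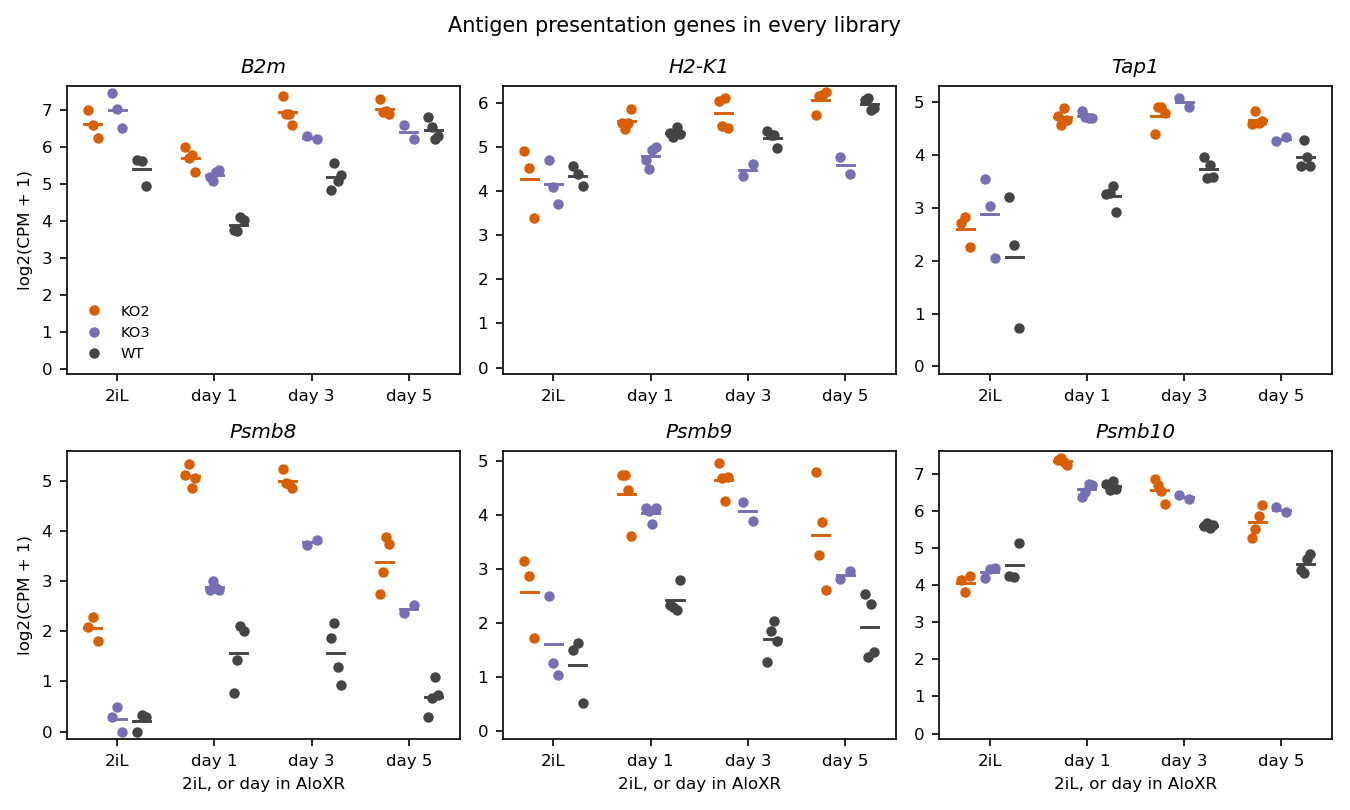
Level of B2m, H2-K1, Tap1, Psmb8, Psmb9 and Psmb10 as log2(CPM + 1) (y axis) in every library by time (x axis), with KO2, KO3 and WT from left to right, points for libraries and lines for group means. At day 3 all depleted libraries of B2m, Tap1, Psmb8, Psmb9 and Psmb10 lie above WT, whereas H2-K1 holds 19.1 and 23.4 CPM in KO3, under the WT libraries.

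The WT line itself changed in these genes on leaving 2iL, in part at shares near those of all genes. At day 1 17 of the 40 rose (42.5%) and 10 fell (25%), where 17.8% of all genes rose and 18.7% fell. At day 3 11 rose (27.5%) and 14 fell (35%), against 21% and 20.6% of all genes. At day 5 11 rose and 11 fell (27.5% each), against 22.7% and 16.6%. The medians were 0.45, 0.22 and 0.04, against 0.03, 0.03 and 0.09 for all genes, and 0.45, 0.14 and 0.03 without the members that had no read in a compared group. Among those that rose, Parp10 changed by 3.58 ± 0.21, adjusted p = 3.67e-19 at day 1, 3.17 ± 0.21, adjusted p = 1.08e-17 at day 3 and 2.16 ± 0.21, adjusted p = 2.51e-12 at day 5. Gbp2b rose at the 3 days by 2.11, 2.08 and 2.08, and Ifit2 by 1.48, 1.58 and 1.61. Tap1 rose by 1.67 at day 3 and 1.89 at day 5, and the heavy chain H2-K1 by 0.97, 0.86 and 1.61 at the 3 days. Ifitm1 had the deepest falls of the members at days 3 and 5, with changes of -2.84 ± 0.23, adjusted p = 3.52e-14 at day 1, -5.50 ± 0.23, adjusted p = 1.47e-24 at day 3 and -5.03 ± 0.23, adjusted p = 3.55e-23 at day 5. Xaf1, the deepest at day 1, changed by -3.62, -4.59 and -4.21, and Rnf213 by -1.60, -2.71 and -2.46. B2m fell at day 1 (-1.51 ± 0.20, adjusted p = 6.52e-08) and stood higher than in 2iL at day 5 (1.06 ± 0.20, adjusted p = 2.91e-05).

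In the depleted lines 18 genes rose (45%) and 9 fell (22.5%) at day 1, where 14.9% and 17.4% of all genes did. At day 3 the counts were 17 (42.5%) and 11 (27.5%), against 19.9% and 18.4% of all genes. At day 5 they were 11 (27.5%) and 10 (25%), against 20.8% and 18.5%. The medians were 0.55, 0.29 and -0.01, against 0.01, 0.06 and 0.06 for all genes. Psmb8 rose by 2.82 ± 0.20, adjusted p = 9.18e-17 at day 1, 3.22 ± 0.21, adjusted p = 2.08e-17 at day 3 and 1.75 ± 0.21, adjusted p = 1.76e-09 at day 5. Gbp3 rose by 2.74, 3.18 and 1.72, and Psmb10 by 2.75, 2.26 and 1.65. Ifitm1 fell here too, with changes of -1.30 ± 0.16, adjusted p = 4.76e-09 at day 1, -2.47 ± 0.18, adjusted p = 4.32e-16 at day 3 and -3.47 ± 0.18, adjusted p = 2e-21 at day 5. Both courses share their 2iL libraries over the 3 days, so that the values of the days are not independent.

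The change from 2iL was compared between the depleted lines and WT, which asks whether the genes moved by different amounts. The change was more positive in the depleted lines for 7 genes at day 1, where this held for 4.79% of all genes, and more negative for 2, against 4.37%. At day 3 the counts were 14 and 1, against 8.41% and 6.37% of all genes, and at day 5 7 and 7, against 7.53% and 10.4%. The medians of these differences were 0.23, 0.57 and 0.04, against -0.02, 0.00 and -0.05 for all genes, and 0.27, 0.51 and -0.13 without the members that had no read in a compared group. Xaf1 had the largest difference at each day, 2.96 ± 0.37, adjusted p = 9.34e-08 at day 1, 3.26 ± 0.38, adjusted p = 1.2e-08 at day 3 and 2.24 ± 0.38, adjusted p = 2.37e-05 at day 5. Ifitm1 differed by 1.55 ± 0.28, adjusted p = 0.000126 at day 1, 3.03 ± 0.29, adjusted p = 1.14e-10 at day 3 and 1.56 ± 0.29, adjusted p = 9.52e-05 at day 5. Parp10 went the other way, with differences of -2.28 ± 0.25, adjusted p = 7.41e-09 at day 1, -2.04 ± 0.26, adjusted p = 9.87e-08 at day 3 and -1.86 ± 0.26, adjusted p = 7.16e-07 at day 5. Irf1 differed at day 3 (1.07 ± 0.23, adjusted p = 0.000588) and day 5 (0.91 ± 0.23, adjusted p = 0.00317), though in KO2 alone the adjusted p was 0.0503 and 0.103. Psmb10 differed at day 3 (1.19 ± 0.22, adjusted p = 6.85e-05) and day 5 (1.62 ± 0.22, adjusted p = 2.61e-07). Other differences were not called by edgeR on the recovered reads. Gbp3 differed by 2.29 ± 0.38, adjusted p = 2.17e-05 at day 1, 2.83 ± 0.39, adjusted p = 4.52e-07 at day 3 and 1.67 ± 0.39, adjusted p = 0.00151 at day 5, with adjusted p of 0.166, 0.068 and 0.0996 in edgeR. Gbp2 at day 3 (2.20 ± 0.40, adjusted p = 7.75e-05) stood at 0.84, adjusted p = 0.777 in edgeR, Oasl2 at day 1 (1.59 ± 0.34, adjusted p = 0.000871) at 0.72, adjusted p = 0.852, and Gbp2b at day 3 (1.09 ± 0.37, adjusted p = 0.0345) had the opposite sign there (-1.20, adjusted p = 0.501). edgeR called 4, 7 and 7 members at days 1, 3 and 5, in place of 9, 15 and 14.

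The 2 depleted lines were not alike in these genes. KO3 was below KO2 for 12 members in 2iL and above it for 2, where 4.74% of all genes were lower and 2.5% higher. At day 1 17 were lower and 4 higher, against 6.79% and 8.19% of all genes. At day 3 8 were lower and 3 higher, against 2.11% and 5.58%, and at day 5 7 were lower and 2 higher, against 5.06% and 9.02%. The medians were -0.41, -0.46, -0.45 and -0.34 from 2iL to day 5, against -0.05, 0.02, 0.06 and 0.05 for all genes. KO3 was lower for 16 members at 2 or more times, and higher for Eif2ak2, Ifitm7 and Bst2. Psmb8 was lower at all 4 times, with changes of -1.80 ± 0.29, adjusted p = 2.81e-05 in 2iL, -2.21 ± 0.26, adjusted p = 1.01e-08 at day 1, -1.22 ± 0.31, adjusted p = 0.00822 at day 3 and -0.94 ± 0.31, adjusted p = 0.0295 at day 5. H2-K1 was lower, with changes of -0.81 ± 0.21, adjusted p = 0.00346 at day 1, -1.29 ± 0.25, adjusted p = 0.000668 at day 3 and -1.48 ± 0.25, adjusted p = 5.24e-05 at day 5. Ifi27 was lower in 2iL (-1.29 ± 0.30, adjusted p = 0.00342) and at day 1 (-2.32 ± 0.26, adjusted p = 6.51e-09), and Ifit1 (-2.28 ± 0.25, adjusted p = 3.19e-09) and Xaf1 (-2.09 ± 0.28, adjusted p = 2.26e-07) at day 1. Eif2ak2 was higher by 0.99 ± 0.19, adjusted p = 0.000105 at day 1 and 1.31 ± 0.23, adjusted p = 6.84e-05 at day 5, on the stretch of chromosome 17 described above. Its call in 2iL was lost without any of KO2 libraries 1, 2 and 3 and KO3 libraries 2 and 3 (adjusted p = 0.0579 to 0.171), and that at day 3 without KO3 library 1 (0.94, adjusted p = 0.0823) or 2 (0.82, adjusted p = 0.135). Bst2 was higher in 2iL (1.14 ± 0.28, adjusted p = 0.00469) and at day 1 (0.82 ± 0.24, adjusted p = 0.00962), where its neighbours had medians of 0.31 and 0.40, and the 2iL call was lost without KO3 library 1 (0.85, adjusted p = 0.0782). At days 3 and 5 KO3 has 2 libraries. Without the first, 4 members were called at day 3 and 3 at day 5, and without the other 1 and 5, with Psmb8 not called at day 3 without the first (-1.17, adjusted p = 0.118) or the other (-1.27, adjusted p = 0.0749), nor at day 5 (-0.86, adjusted p = 0.211, and -1.03, adjusted p = 0.11). Its day 5 call was also lost without KO2 library 3 (-0.78, adjusted p = 0.0955) or 4 (-0.82, adjusted p = 0.0789). H2-K1 was called at days 3 and 5 without any single library.

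Genes of the same pathways outside the 43 were read from 7 lists, of which 101 genes passed the filter. In the depleted lines 22 of them rose and 10 fell in 2iL, 16 rose and 6 fell at day 1, 27 rose and 2 fell at day 3, and 20 rose and 10 fell at day 5. Of all genes 8.11% rose and 7.6% fell in 2iL, and 6.31% and 5.5% at day 1. At day 3 these shares were 10.8% and 6.49%, and at day 5 8.89% and 11.7%. The 36 other interferon-inducible genes held most of the rises, with 13, 11, 18 and 12 higher and 3, 3, 0 and 2 lower at the 4 times, and medians of 0.45, 0.41, 0.69 and 0.20. Among them Irgm1, an immunity-related GTPase, rose at all 4 times, by 1.85 ± 0.35, adjusted p = 6.38e-05 in 2iL, 1.13 ± 0.30, adjusted p = 0.00498 at day 1, 2.19 ± 0.32, adjusted p = 1e-06 at day 3 and 1.92 ± 0.32, adjusted p = 1.09e-05 at day 5. Zc3hav1, which directs viral RNA to decay, rose by 1.28 at day 1, 2.47 at day 3 and 1.54 at day 5. Lgals9, a galectin, rose by 2.58 in 2iL. The counts for receptors and kinases lay near the shares of all genes. Of the 10 genes listed with the receptors and kinases 1, 1, 1 and 0 rose and 0, 0, 0 and 2 fell at the 4 times, and the others were not called. Among them Ifngr1 rose in 2iL (0.80 ± 0.24, adjusted p = 0.0119), Jak2 at day 1 (1.16 ± 0.24, adjusted p = 0.000253) and day 3 (0.98 ± 0.26, adjusted p = 0.00324), and Ifnlr1 fell at day 5 (-0.88 ± 0.28, adjusted p = 0.0135). Of the 14 sensing genes 4, 0, 2 and 3 rose and 1, 1, 0 and 0 fell at the 4 times, with among the rises the DNA sensor Aim2 at day 3 (1.4 ± 0.17, adjusted p = 1.68e-08) and day 5 (2.03 ± 0.17, adjusted p = 1.61e-12). Of the 26 other class I and loading genes 3, 1, 4 and 4 rose and 3, 2, 2 and 4 fell, with medians of -0.07, 0.12, 0.01 and -0.08. These counts too lay near the shares of all genes. Of the 10 negative regulators 0, 1, 2 and 1 rose and 1, 0, 0 and 1 fell. Socs3 fell in 2iL (-1.57 ± 0.30, adjusted p = 0.000121) and Socs1 rose at day 3 (0.90 ± 0.22, adjusted p = 0.00198).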

How the data were processed

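Gene levels were taken from the deposited table of CPM values for 55487 Ensembl genes in 41 libraries. Per the labels' protocols the libraries were made with a QuantSeq 3′ kit, and per the submitters' processing notes they were processed with STAR 2.7.6a and featureCounts 2.0.1 on GRCm38. The authors deposited CPM, each library summing to 1000000, and no column was left unmapped. Of the 766190 CPM values above 0, 100% were whole reads within 0.01 of a read, so the reads and the depth of each library could be recovered. Of the genes, 55141 were given a symbol from the GENCODE vM21 annotation.

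A gene was tested where at least 3 libraries held at least 1 CPM. The test was limma 3.58.1 in R 4.3.3 on log2(CPM + 1), with a mean for each of the 12 groups of line and time, robust variances with a trend and 29 residual degrees of freedom. P-values were adjusted by Benjamini-Hochberg over all 16967 genes in each comparison. The depleted lines were averaged with equal weight. Libraries are numbered in accession order within a group, which pairs nothing. The unit of comparison is the library, with 1 WT line and 2 depleted lines. As an alternative, edgeR 4.0.16 (quasi-likelihood, TMM) on the recovered read counts called 1159 genes higher and 1302 lower in 2iL, 1137 and 933 at day 1, 1644 and 1177 at day 3, and 1643 and 1705 at day 5 in the depleted lines against WT. The fits were tested on simulated data. The 43 genes, the other lists and the tests were chosen with earlier results of these data known. Values by library are given for 25 members: those among the 8 largest called changes of a comparison with WT, those called between KO3 and KO2 at 2 or more times, and the 8 largest called changes from 2iL to day 5 in WT. B2m was added after its values were seen, the other members are given by ranges and counts, and of other pathway genes up to 4 called per list and comparison may be named. A gene of these lists is in their counts but is not reported here. Medians without members at 0 and the medians of the 30 nearest genes of at least 10 CPM were added after seeing the data. Sequences are RefSeq promoter windows of GRCm38.p6.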

Additional observations from a re-analysis of the deposited data

Results flagged for a closer look

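Of 175 groups of 4 libraries tested by Dixon's ratio, 13 held a library apart from the others, and chance flags about 1 in 20. At day 1 in KO3, library 1 stood high for Gbp7 (10.7 CPM, others 6.32 to 7 CPM), Ifitm1 (32 CPM, others 24.6 to 25.1 CPM) and Ifitm3 (219 CPM, others 207 to 208 CPM), library 2 for Psmb8 (7 CPM, others 6.09 to 6.21 CPM) and library 4 for Ifih1 (2.03 CPM, others 0 to 0.219 CPM). In KO2 at day 5, library 1 was high for Ifitm7 (9.11 CPM, others 4.25 to 4.90 CPM) and library 2 low for Trim25 (35.7 CPM, others 43.6 to 44.6 CPM). In WT, library 4 was high for Psmb9 at day 1 (5.97 CPM, others 3.71 to 4.03 CPM) and library 2 low for Ifitm7 at day 3 (3.71 CPM, others 6.17 to 6.33 CPM). The remaining WT libraries were the only ones of their group with reads, for Ifih1 library 3 at day 1 (0.825 CPM) and library 1 at day 5 (0.218 CPM), and for Ifit1 library 4 at day 3 (0.181 CPM) and library 1 at day 5 (0.218 CPM).

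The change from 2iL differed between the depleted lines and WT, by limma's test of the difference itself on log2(CPM + 1), most for these genes. At day 1 the differences were 2.96 for Xaf1, 2.29 for Gbp3, -2.28 for Parp10, 1.59 for Oasl2 and 1.55 for Ifitm1. At day 3 they were 3.26 for Xaf1, 3.03 for Ifitm1, 2.83 for Gbp3, 2.20 for Gbp2 and -2.04 for Parp10. At day 5 they were 2.24 for Xaf1, -1.86 for Parp10, 1.67 for Gbp3, 1.62 for Psmb10 and 1.56 for Ifitm1. Those of Gbp2, Gbp3 and Oasl2 did not pass the threshold in edgeR.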

How the results depend on the processing

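No paired analysis was possible because the labels number no replicates, and the numbers used here follow accession order. In the 4 comparisons with WT the count of members called stayed within 1.5 times its value under every alternative tried: pseudocounts of 0.5 and 5 CPM, no filter and a filter of 5 CPM, quantile normalization, edgeR with TMM or DESeq2 size factors, fits of the compared groups alone, KO2 or KO3 alone, and each library left out. The count can hold while the genes called change. Of the calls against WT, 7 of 17 in 2iL and 8 of 22 at day 1 were lost under 1 or more alternatives other than leaving out a library. At day 3 this held for 10 of 28 calls and at day 5 for 9 of 20. Fewer members were called for day 1 against 2iL in WT with a pseudocount of 5 CPM (15 in place of 27). For the differences of changes, edgeR with TMM and with DESeq2 size factors called 4 and 4 in place of 9 at day 1, 7 and 8 in place of 15 at day 3, and 7 and 7 in place of 14 at day 5, where KO2 alone gave 9. Between KO3 and KO2 in 2iL the count was 8 with a pseudocount of 5 CPM and 3 in a fit of these groups alone, in place of 14. Leaving out single libraries gave 8 to 14 in 2iL, 1 to 10 at day 3 (11 with all) and 3 to 9 at day 5 (9 with all). Quantile normalization moved the split of all genes between KO3 and KO2 to 580 higher and 679 lower in 2iL (in place of 424 and 804), 705 and 559 at day 3 (946 and 358), and 1204 and 1143 at day 5 (1531 and 858), with 2 higher and 11 lower members at day 3 (3 and 8). The Esrrb change in 2iL was -2.74 in KO2 alone and -1.48 in KO3 alone, with 3 libraries a group, which cannot reach an exact p under 0.1. The sign turned for Ifit1 at day 1 in KO3 alone (-1.09), and for the difference of Gbp2b at day 3 in edgeR with TMM (-1.20) and with DESeq2 size factors (-1.15). The cause of these shifts was not tested. Depth limits the genes under about 1 CPM, which rest on a handful of reads.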
